A study of Mus musculus with 6 samples.

Results

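The Zfp genes described here are mouse zinc finger genes whose deposited symbol is Zfp followed by digits, and the array sheet named 91 probe sets of 72 such genes. These genes are 72 of the 4485 symbols in the sheet, and their probe sets are 91 of the 5604 probe sets that carry a symbol, and 5604 of the 45037 probe sets of the array that are not controls. The members were chosen by the same comparison that is described below, because the authors filled in a symbol only where their own p-value was under 0.05. Their differences are therefore given as a description, with no test of the group. Probe sets without a symbol could not be assigned to a gene and were not analysed here. A further 28 probe sets carry another deposited symbol for a gene that is now named Zfp, and they are no members.

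Expression was measured on 6 arrays, 1 for each of 6 mouse mammary tumour cell lines. Lines 72, 75 and 116 lacked Akt1, labelled akt(-/-), and lines 31, 101 and 102 were wild type, labelled akt(+/+). Akt1 is a protein kinase switched on by phosphoinositide 3-kinase signalling, and the design asks how gene expression in ErbB2-driven tumour cells differs in its absence. Lines of both genotypes came from tumours that formed spontaneously in animals whose ErbB2 oncogene is driven by MMTV sequences, which are active in the mammary epithelium. Both were plated for 4 h to reduce fibroblasts, carried for 25 passages, and grown in 10% serum with insulin at 4 µg/ml, hydrocortisone at 1 µg/ml, EGF at 10 ng/ml and cholera toxin at 10 ng/ml. Whether the lines came from separate animals, and the age or strain of those animals, the labels leave unsaid, so a p-value here reflects spread among lines and no more.

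Most Zfp proteins are DNA-binding proteins built from C2H2 zinc fingers, small folds in which a zinc ion is held by cysteines and histidines and which read a few bases of DNA each. Many also carry a KRAB domain, which recruits the corepressor Trim28 and with it histone methylation and heterochromatin proteins, and KRAB zinc finger genes often lie side by side in clusters. The Zfp symbol also covers proteins with other work: the CCCH finger proteins of the Zfp36 family bind AU-rich elements and hasten the decay of messenger RNAs, and several members are ubiquitin ligases.

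The labels were checked on Akt1 itself. Its brighter probe set read 4.62, 4.57 and 4.38 log2 units in knockout lines 72, 75 and 116, against 9.71, 10.09 and 10.03 in wild-type lines 31, 101 and 102, a 42.8-fold lower level (limma, Benjamini-Hochberg adjusted p = 0.000405). No fibroblast marker of 10 listed carried a symbol, while 6 of 12 mammary epithelial markers did, 4 higher and 2 lower in knockout lines. The symbols also covered 1 of 5 endothelial markers (Plvap, -1.40), 2 of 8 leukocyte markers (both lower) and 1 of 4 adipocyte markers (Lipe, -0.62). A symbol marks a difference between the genotypes and not expression, so these counts do not tell the cell type. Because markers without a symbol could not be looked up, the cell type was not checked. One hybridisation control, bioC, averaged 7.81 ± 0.18 in knockout lines and 9.08 ± 0.15 in wild-type lines (SD, n = 3 each), and the gap between the 3′ and 5′ probe sets of Actb was 3.48 ± 0.05 and 3.05 ± 0.22. For Gapdh that gap was 3.52 ± 0.35 in knockout lines and 2.77 ± 0.63 in wild-type lines, while the controls bioB, bioD and cre differed by 0.06, -0.19 and 0.03. The bearing of these technical differences on the Zfp values was not tested.

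The Zfp probe sets were split nearly evenly between the genotypes. In knockout lines 45 were higher and 46 lower, so that 50.5% were lower, beside 53.7% of all probe sets with a symbol. Differences, always knockout minus wild type on the log2 scale, ran from -1.99 to 2.38 with a median of -0.10, and their median size was 0.62. Over all probe sets with a symbol the median was -0.27 and the median size 0.58, and over all probe sets of the array 0.03 and 0.20. The higher Zfp probe sets had a median of 0.52 and the lower ones of -0.66.

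Few of the differences were large. At least a 2-fold difference was seen for 11 of the 91 probe sets, beside 16.5% of those with a symbol: 3 higher, against 1.11% of all probe sets, and 8 lower, against 2.49%. Among probe sets with a symbol 177 were at least 2-fold higher and 746 lower, so lower ones prevailed there too. The 3 higher ones belonged to Zfp182, Zfp386 and Zfp68. The 8 lower ones belonged to Zfp469, Zfp291, Zfp503, Zfp91, Zfp687, Zfp36l1, Zfp398 and Zfp451, the last by a probe set whose brighter partner was higher. In all 91 the 3 knockout values lay to one side of the 3 wild-type values, as in 99.9% of probe sets with a symbol and 21.9% of the array, which the choice of members fixes. An unadjusted limma p under 0.05 was reached by 80 of the 91, beside 81.6% of probe sets with a symbol and 15.4% of the array, and nothing is read from it.

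**Figure D1:**
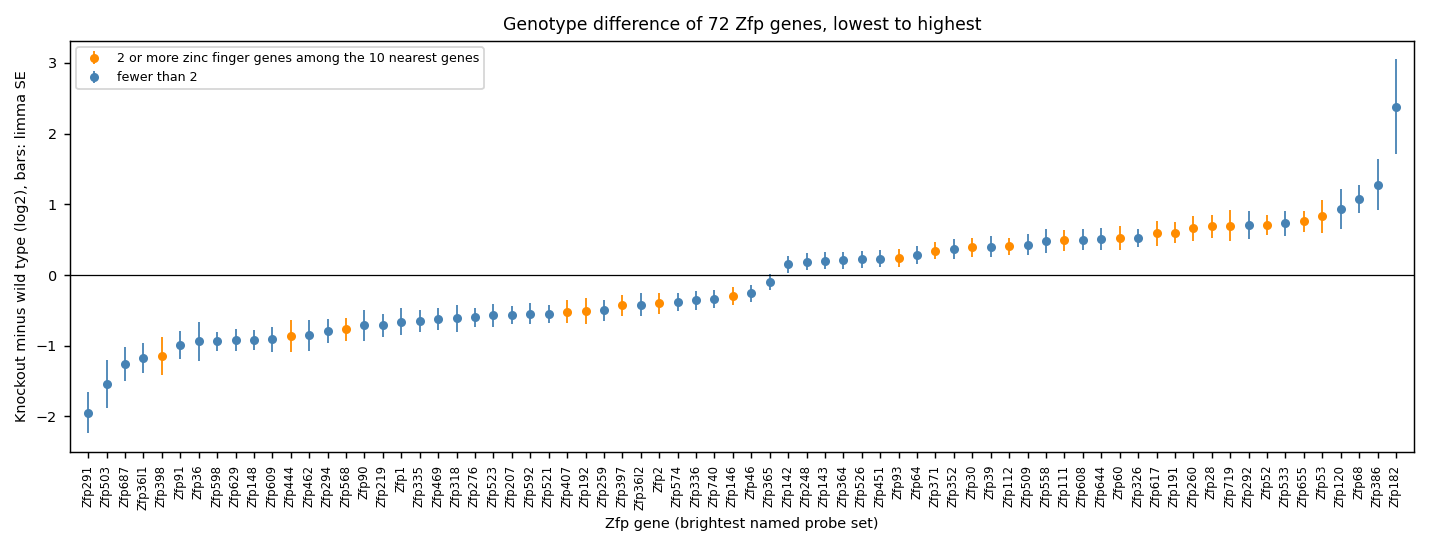
Difference between Akt1 knockout and wild-type lines (log2, vertical axis) for each of the 72 Zfp genes, by the brightest named probe set, with bars for limma's standard error. Orange points have at least 2 other zinc finger genes among their 10 nearest protein-coding genes, and values run from -1.95 for Zfp291 to 2.38 for Zfp182 with 38 genes below 0 and 34 above it.

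Among genes deposited under a Zfp symbol, Zfp469 was the only one with a probe set that passed the test across the array. It encodes a very large C2H2 protein whose human counterpart is mutated in brittle cornea syndrome, a disorder of connective tissue. Its called probe set read 4.88, 5.35 and 4.71 in knockout lines 72, 75 and 116, against 7.12, 6.84 and 6.93 in wild-type lines 31, 101 and 102. The highest knockout line, 75, was thus well under the lowest wild-type line, 101. Zfp469 fell by 1.99 log2 units in knockout lines (SE 0.20, limma, Benjamini-Hochberg adjusted p = 0.0394). That 1 of 91 stands beside 0.107% called over the array, from which nothing is read because the same contrast chose the members.

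A brighter Zfp469 probe set averaged 6.93 ± 0.20 in knockout lines and 7.54 ± 0.17 in wild-type lines (SD, n = 3 each), a difference of -0.62 that did not pass. A probe set deposited under the older name Gm22, which RefSeq now gives as Zfp469, differed by -0.99 and did not pass. All 3 probe sets were thus lower in every knockout line, with sizes from 0.62 to 1.99. The call itself was narrow: the adjusted p was 0.0507 after each array was centred on its median and 0.188 when the deposited p-values were adjusted. Without any line other than knockout line 75 it lay between 0.141 and 0.163. Without line 75, Zfp469 (0.0359), Zfp291 (0.0476) and Zfp68 (0.0479) were at adjusted p under 0.05, beside 0.726% of the array.

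Zfp291 had the lowest difference of the brightest probe sets. Its current name is Scaper, for a cyclin A-binding protein of the endoplasmic reticulum. It read 3.27, 3.76 and 2.95 in knockout lines, in the order 72, 75 and 116 that is kept from here on, against 5.74, 5.21 and 4.88 in wild-type lines 31, 101 and 102. All 3 knockout lines were under the lower quartile of the array, 3.80, and all 3 wild-type lines above it. The difference was -1.95 (SE 0.29), 3.85-fold lower.

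Zfp503, a zinc finger repressor also known as Nolz1 that acts in the developing striatum, read 6.45, 7.03 and 6.79 in knockout lines, against 8.90, 8.40 and 7.58 in wild-type lines. Its wild-type lines spread more widely than its knockout lines, with SDs of 0.29 and 0.67 for knockout and wild type, and line 102 came nearest to the knockout values. The difference was -1.54 (SE 0.34). Zfp687 read 6.38, 6.83 and 6.03 in knockout lines, against 7.94, 7.41 and 7.66 in wild-type lines, a difference of -1.26 (SE 0.24). Its human counterpart is mutated in a form of Paget disease of bone, and its protein works in a chromatin complex with the product of Zfp592. Zfp592 was lower too, with differences of -0.55 and -0.80 in its 2 probe sets.

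**Figure D2:**
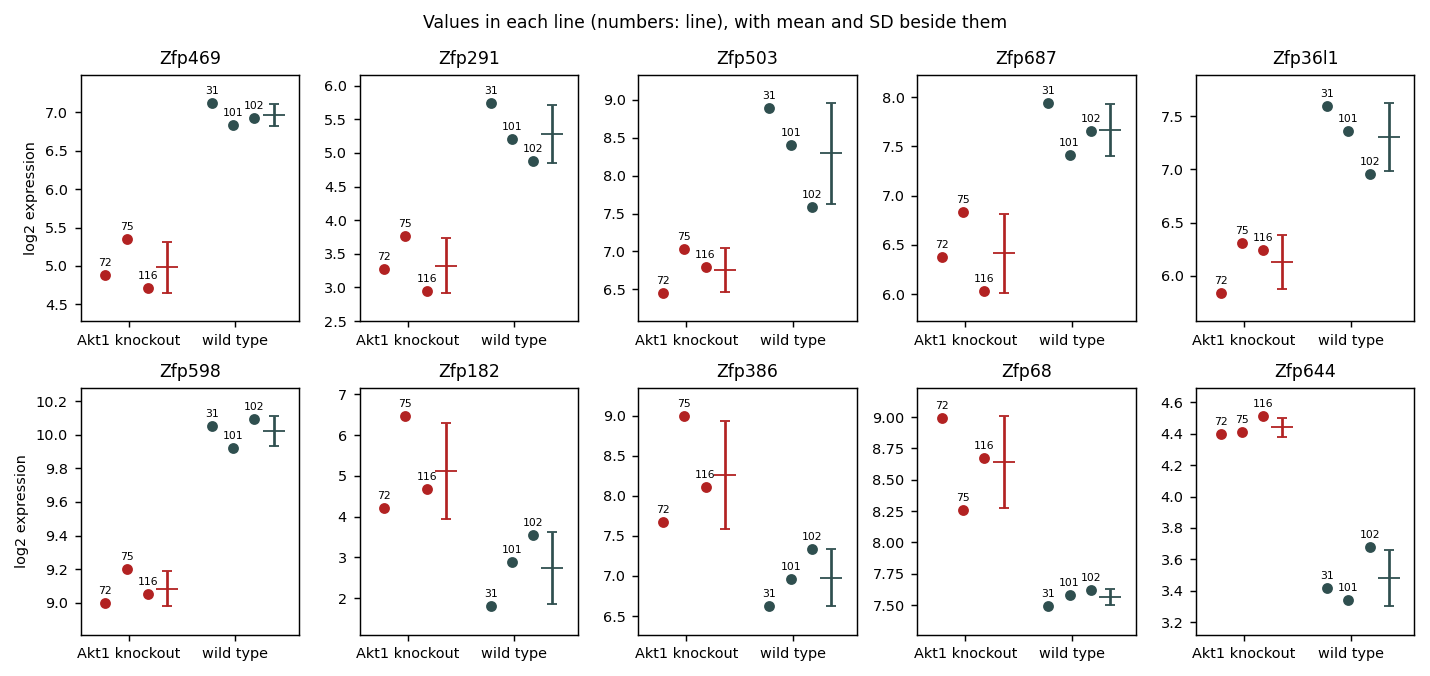
Log2 expression in each line for 10 Zfp genes, by the probe set of largest difference, with the line number over each point and the mean and SD of the 3 lines beside them; each panel has its own vertical scale. Akt1 knockout lines (red) lie below the wild-type lines (dark) in the first 6 panels and above them in the last 4, and knockout line 75 stands highest in Zfp182 and Zfp386.

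All 3 named members of the CCCH family of RNA decay factors were lower in knockout lines, and none passed the test. Zfp36l1 read 5.84, 6.31 and 6.24 in knockout lines, against 7.59, 7.36 and 6.96 in wild-type lines, a difference of -1.17 (SE 0.21). Zfp36, also known as tristetraprolin, read 7.22, 7.20 and 7.44 in knockout lines, against 8.67, 8.39 and 7.63 in wild-type lines. Its wild-type line 102 lay only just above knockout line 116, and the difference was -0.94 (SE 0.27). Zfp36l2 averaged 5.69 ± 0.20 in knockout lines and 6.11 ± 0.16 in wild-type lines (SD, n = 3 each), a difference of -0.42.

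The listed ubiquitin ligases with a symbol were Zfp91, Zfp294 and Zfp364, and none passed the test. Zfp91, an atypical ligase that acts on the kinase NIK in non-canonical NF-κB signalling, was lower in both of its probe sets. The brighter one read 9.27, 8.65 and 8.78 in knockout lines, against 9.85, 9.76 and 10.07 in wild-type lines, a difference of -0.99 (SE 0.20), and the other differed by -1.27. Zfp294, now Ltn1, the ligase that tags nascent chains stuck on stalled large ribosomal subunits, differed by -0.79 and -0.40. Zfp364, now Rnf115, a RING ligase, averaged 9.57 ± 0.10 in knockout lines and 9.36 ± 0.02 in wild-type lines (SD, n = 3 each), a difference of 0.21 (SE 0.12) that did not reach an unadjusted limma p of 0.05 either.

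Zfp598 is likewise a ubiquitin ligase, one that recognises collided ribosomes. It had the smallest deposited p-value of the 91 probe sets (0.000325 in the authors' deposited table). It read 9.00, 9.20 and 9.05 in knockout lines, against 10.05, 9.92 and 10.09 in wild-type lines. The lines of each genotype lay within a narrow band, with SDs of 0.11 and 0.09 for knockout and wild type, and the difference was -0.94 (SE 0.13). It stood among the brightest Zfp probe sets. Zfp398 (-1.15, SE 0.27) and Zfp629 (-0.92, SE 0.16) were also among the 10 genes of largest lower difference, and both had low signals, with means of 4.01 and 3.02 in knockout lines and 5.16 and 3.95 in wild-type lines.

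Among the higher genes Zfp182, an X-linked KRAB zinc finger gene, had the largest difference and the widest spread. It read 4.22, 6.46 and 4.68 in knockout lines, against 1.80, 2.89 and 3.54 in wild-type lines. Line 75 lay far above the others, and all 3 wild-type lines were under the lower quartile of the array. The difference was 2.38 with a standard error of 0.67, and its deposited p-value of 0.0490 was close to the limit of 0.05. Zfp386 read 7.67, 8.99 and 8.11 in knockout lines, against 6.63, 6.96 and 7.34 in wild-type lines, a difference of 1.28 (SE 0.36), again with line 75 highest.

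Zfp68 was higher in all 3 of its probe sets. The brightest read 8.99, 8.26 and 8.67 in knockout lines, against 7.49, 7.58 and 7.62 in wild-type lines, a difference of 1.08 (SE 0.20). The other 2 differed by 0.93 and 0.88, with standard errors of 0.15 and 0.16. Zfp644 was also higher in 3 of 3 probe sets, by 0.51, 0.74 and 0.96 from the brightest to the dimmest. Its dimmest probe set read 4.40, 4.41 and 4.51 in knockout lines, against 3.42, 3.34 and 3.68 in wild-type lines, so the largest difference came from the lowest signal.

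The other genes among the 10 of largest higher difference lay between 0.70 and 0.93. Zfp655, whose human counterpart binds the signalling protein Vav1, was bright in both genotypes, at 9.75 ± 0.21 in knockout lines and 8.99 ± 0.11 in wild-type lines (SD, n = 3 each), a difference of 0.76. Zfp120 differed by 0.93, Zfp53 by 0.83, Zfp533 (now Zfp385b) by 0.73 and Zfp52 by 0.71. Zfp53 and Zfp52 are on chromosome 17, and their knockout lines read 6.99, 7.71 and 7.56 for Zfp53 and 6.75, 7.03 and 7.14 for Zfp52. Their wild-type lines read 6.36, 6.62 and 6.78 for Zfp53 and 6.24, 6.24 and 6.32 for Zfp52. Line 72 was the lowest knockout line for both genes, and still above each wild-type line.

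Promoter sequences are shown for 3 members whose brightest probe set was measured well above the array's lower quartile, 1 higher and 2 lower, to show the letters in which motifs were counted. They run from 250 bases before to 50 bases after the most upstream start that RefSeq lists for the gene on GRCm38.p6, in the direction of transcription. Other starts of a gene were not read. Zfp68 lies at chr5:138619694-138619993 on the minus strand, Zfp598 at chr17:24669437-24669736 on the plus strand and Zfp36l1 at chr12:80112964-80113263 on the minus strand. Capitals mark the GC box (GGGCGG or CCGCCC), the CCAAT box (CCAAT or ATTGG) and the core letters of the YY1 motif (ATGGCG or CGCCAT), read on both strands.
Zfp68: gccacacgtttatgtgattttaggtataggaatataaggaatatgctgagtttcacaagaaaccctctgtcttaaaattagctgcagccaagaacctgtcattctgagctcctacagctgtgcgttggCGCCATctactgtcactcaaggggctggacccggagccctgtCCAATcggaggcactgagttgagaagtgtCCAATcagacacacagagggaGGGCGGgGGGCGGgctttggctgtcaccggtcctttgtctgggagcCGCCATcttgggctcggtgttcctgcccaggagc
Zfp598: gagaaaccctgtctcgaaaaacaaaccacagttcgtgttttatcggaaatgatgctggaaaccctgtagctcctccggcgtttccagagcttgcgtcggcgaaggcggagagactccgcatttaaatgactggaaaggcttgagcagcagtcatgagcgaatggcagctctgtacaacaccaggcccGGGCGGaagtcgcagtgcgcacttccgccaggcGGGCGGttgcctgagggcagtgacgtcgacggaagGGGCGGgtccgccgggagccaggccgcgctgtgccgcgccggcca
Zfp36l1: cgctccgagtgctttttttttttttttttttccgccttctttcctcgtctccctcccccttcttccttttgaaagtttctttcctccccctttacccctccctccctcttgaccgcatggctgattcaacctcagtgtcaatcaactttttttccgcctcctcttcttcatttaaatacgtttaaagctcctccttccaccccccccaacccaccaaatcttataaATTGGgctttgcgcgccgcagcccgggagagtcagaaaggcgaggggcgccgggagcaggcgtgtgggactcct

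The motifs of these 3 promoters differ, and a link to the direction of the gene was not tested. Zfp68, higher in knockout lines, has 2 GC boxes, 2 CCAAT boxes and 2 YY1 cores. Zfp598, lower in knockout lines, has 3 GC boxes and neither of the others. Zfp36l1, also lower, has 1 CCAAT box and no GC box. Among promoters not shown, Zfp644 (higher) has 2 GC boxes and neither of the others, and Zfp91 (lower) has 1 YY1 core only. RefSeq's table held promoters for 56 of the 72 genes, Zfp469 not among them. A GC box was in 62.1% of 29 promoters of higher genes and 40.7% of 27 promoters of lower genes. Over all 27025 genes in the table, each read at its most upstream start, it was in 35.9%. A CCAAT box was in 44.8%, 22.2% and 38.0% of the same sets. The sets also differ in base content, which bears on such counts. Their median GC content was 56.3%, 58.3% and 52.7%, and their median ratio of observed to expected CpG was 0.71, 0.76 and 0.39. Higher and lower follow the brightest probe set here, also for genes with probe sets on both sides.

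Other motifs were read in the same windows. The YY1 core was in 17.2% of promoters of higher genes, 25.9% of those of lower genes and 9.25% of all. The FoxO motif (GTAAACA or TGTTTAC), read because FoxO factors are held out of the nucleus by Akt, was in 0 of the 56 Zfp promoters and 3.52% of all. An NRF1 motif (GCATGCGC on either strand) was in 2 of the 29 higher, 0 of the 27 lower and 2.80% of all. An E-box (CACGTG, its own reverse complement) was in 6.90%, 11.1% and 7.24% of promoters of higher genes, of lower genes and of all genes. Matches of different motifs may overlap. A match is a description of the letters and not a site.

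The probe sets of one gene did not always move together. Of the 14 Zfp genes with 2 or 3 named probe sets, 9 had them all in one direction: Zfp260, Zfp28, Zfp644, Zfp68 and Zfp719 higher, and Zfp294, Zfp469, Zfp592 and Zfp91 lower. The other 5 (35.7%), Zfp148, Zfp191, Zfp292, Zfp444 and Zfp451, had probe sets on both sides, as did 26.7% of the 874 symbols with at least 2 named probe sets. Each of these probe sets had been chosen by its own p-value, so a probe set without a difference is not seen.

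**Figure D3:**
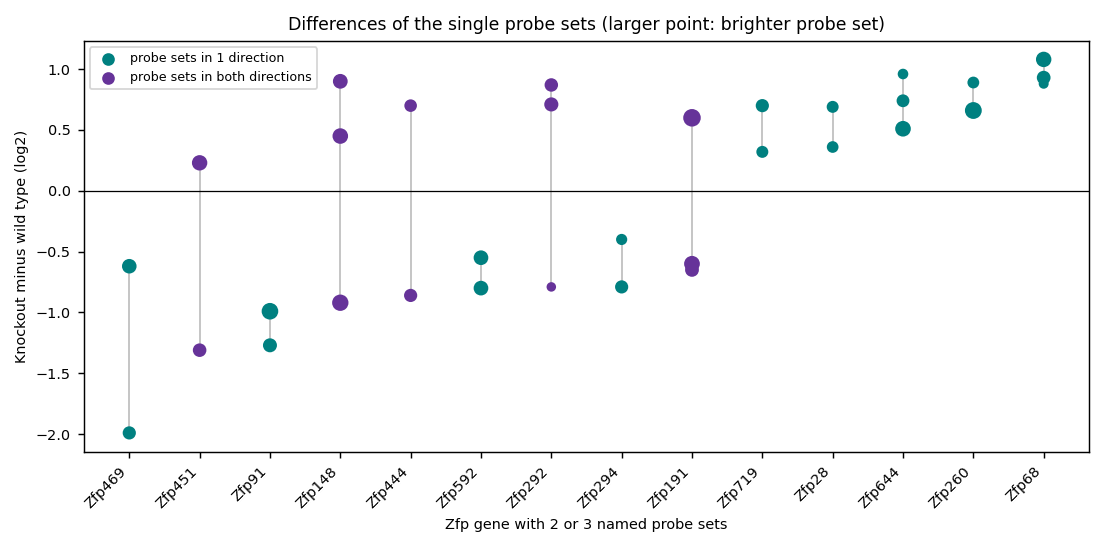
Difference between Akt1 knockout and wild-type lines (log2, vertical axis) of each named probe set for the 14 Zfp genes that have 2 or 3 of them; point size grows with brightness, and a grey line joins the probe sets of 1 gene. Purple marks the 5 genes whose probe sets lie on both sides of 0, with the largest gap, 1.82, in Zfp148.

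Zfp148 encodes a factor that binds GC-rich promoters. Its brightest probe set read 8.57, 8.82 and 8.54 in knockout lines, against 9.43, 9.63 and 9.62 in wild-type lines, a difference of -0.92 (SE 0.14). A second read 8.05, 7.70 and 7.88 in knockout lines, against 6.84, 7.21 and 6.87 in wild-type lines, a difference of 0.90 (SE 0.16). The third differed by 0.45, so 2 of 3 were higher while the brightest was lower, and each of the 3 kept the genotypes apart.

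Zfp191, now Zfp24, is needed for myelination in the mouse. Its brightest probe set read 11.03, 10.68 and 10.68 in knockout lines, against 10.21, 10.31 and 10.06 in wild-type lines, a difference of 0.60, and its other 2 differed by -0.65 and -0.60. Zfp451, whose human counterpart is a SUMO ligase, differed by 0.23 in the brighter probe set and by -1.31 in the dimmer one. For Zfp292 the 2 brighter probe sets differed by 0.71 and 0.87 and the dimmest by -0.79, while Zfp444 had -0.86 and 0.70. With all probe sets of a gene averaged, Zfp148 (0.15), Zfp191 (-0.22) and Zfp451 (-0.54) changed sign. Their place in the counts by gene is that of the brightest probe set and does not give a direction for these 5 genes. Which transcripts each probe set reads was not analysed here.

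The pairs that kept one direction differed in size. Zfp260 was higher by 0.66 in its brighter and 0.89 in its dimmer probe set, Zfp28 by 0.69 and 0.36, and Zfp719 by 0.70 and 0.32. For Zfp28 the brighter probe set read 5.36, 5.33 and 5.19 in knockout lines, against 4.54, 4.87 and 4.40 in wild-type lines. Some probe sets may also read other sequences: 5 of the 91 IDs end in _s_at and 3 in _x_at, marks of probes without a unique target. Whether those targets are other Zfp genes was not analysed here. The 3 of the second kind, for Zfp68, Zfp93 and Zfp142, were all higher in knockout lines, by 0.88, 0.24 and 0.15. Without both kinds the median difference of the Zfp probe sets was -0.30.

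The Zfp probe sets covered most of the range of brightness. The mean level of the 91 probe sets over the 6 lines ran from 2.56 to 10.49 with a median of 6.06, close to the 6.11 of all probe sets with a symbol. Of the 14 Zfp probe sets under the lower quartile of the array, 9 were lower and 5 higher in knockout lines. From there to the median 8 were lower and 11 higher, from the median to the upper quartile 21 were lower and 17 higher, and above the upper quartile 8 were lower and 12 higher. The shares that were lower, over these ranges from the dimmest to the brightest, were 64.3%, 42.1%, 55.3% and 40.0% of Zfp probe sets, against 37.5%, 49.4%, 63.7% and 54.8% of all with a symbol. With the 14 dim ones left out, the median difference of the Zfp probe sets was 0.19, against -0.10 with them.

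**Figure D4:**
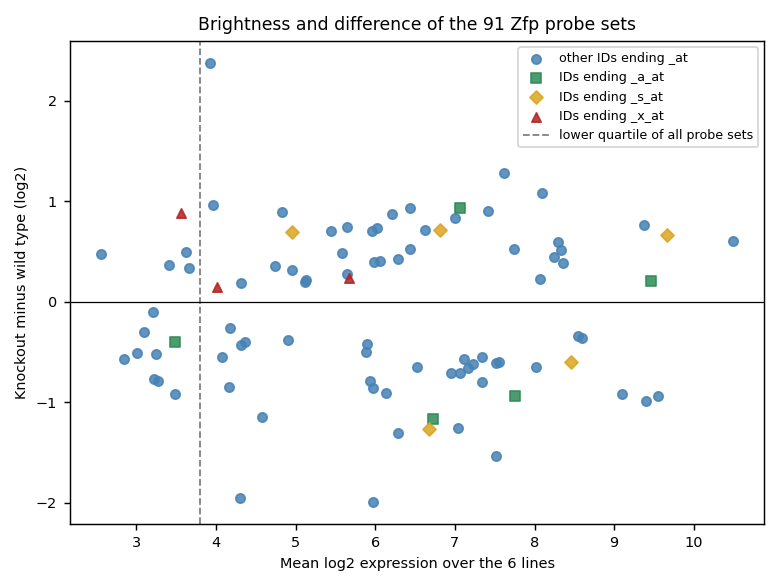
Mean log2 expression over the 6 lines (horizontal axis) against the difference between Akt1 knockout and wild-type lines (log2, vertical axis) for the 91 Zfp probe sets, with the ending of the probe set ID as the marker and a dashed line at the lower quartile of the array, 3.80. To the left of the line lie 14 probe sets, 9 below 0 and 5 above it.

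Direction was also read by the place of a gene among other zinc finger genes. In RefSeq's gene order, 22 of the 72 genes had at least 2 Zfp, Zkscan or Zscan genes among the 10 nearest protein-coding genes, 5 on each side, as do 3.45% of all protein-coding genes. Of these 22, by the brightest probe set, 14 were higher and 8 lower in knockout lines, with a median of 0.40. Of the other 50, 20 were higher and 30 lower, with a median of -0.40. The split was made after the values were seen, and the members share a contrast that chose them, so it has no test.

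Chromosome 7, which carries large zinc finger clusters in the mouse, held 18 of the genes, 11 of them higher and 7 lower. It also held 12 of the 22 genes with zinc finger neighbours. Of these 12, Zfp93, Zfp371 (now Zscan5b), Zfp30, Zfp112, Zfp111, Zfp60, Zfp260, Zfp28 and Zfp719 were higher, by 0.24 to 0.70. Zfp444 (by its brighter probe set only), Zfp568 and Zfp146 were lower, with differences of -0.86, -0.77 and -0.30. Dim among these 12 were the lower Zfp568 and Zfp146 and the higher Zfp371. On chromosome 17 both such genes, Zfp52 and Zfp53, were higher, as was the single one on chromosome 5 (Zfp655) and on chromosome 8 (Zfp617). The single ones on chromosome 6 (Zfp398), 11 (Zfp2) and 13 (Zfp192) were lower. Of the 3 on chromosome 18 Zfp191 was higher by its brightest probe set and Zfp407 and Zfp397 were lower. The lower genes Zfp2, Zfp192 and Zfp407 were dim too. Without dim genes 13 of 16 genes with zinc finger neighbours were higher, against 17 of 44 others. All 5 Zfp genes on chromosome 5 were higher, by 0.43 to 1.08, though Zfp655 alone of them had such neighbours.

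The same split was read in 24 genes that now have a Zfp name and had a probe set deposited under another symbol, and it was not seen there. With zinc finger neighbours 8 were higher and 8 lower, and without them 5 were higher and 3 lower. The set is not fully separate from the members: Zfp469 is in it through the probe set named Gm22, as a lower gene without neighbours. Zfp626, counted as higher with neighbours, had probe sets on both sides (0.73 in the brighter and -0.97 in the other). The lowest of these genes was AA407452, now Zfp800, which read 2.99, 3.55 and 3.46 in knockout lines, against 7.05, 6.82 and 6.22 in wild-type lines. Zfp800 was chosen for naming after its values were seen, and in this probe set it fell by 3.37 log2 units (limma, Benjamini-Hochberg adjusted p = 0.0295). Its other probe set differed by -1.54 and did not pass (adjusted p = 0.0636, limma).

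The genes outside the naming rule were 40 of the 72, 18 higher by 0.15 to 0.59 and 22 lower with differences from -0.91 to -0.10. Some are named here for their known roles, after their values were seen. Zfp609, which works with the Integrator complex, differed by -0.91. Zfp207, whose human counterpart BuGZ aids spindle assembly and chromosome alignment, differed by -0.57 at the low level of 2.56 ± 0.11 in knockout lines and 3.13 ± 0.07 in wild-type lines (SD, n = 3 each). Zfp259, now Zpr1, a protein that binds the cytoplasmic part of the EGF receptor, differed by -0.50. Zfp568, a KRAB repressor of a placental Igf2 transcript, differed by -0.77 with all 6 values near or under the lower quartile. Zfp143, an activator bound at many promoters, differed by 0.20, and Zfp326, which couples transcription to splicing, by 0.52.

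The members nearest the limit were Zfp192 (now Zkscan8), Zfp182 and Zfp143, with deposited p-values of 0.0493, 0.0490 and 0.0489. Zfp192 read 2.76, 2.92 and 2.59 in knockout lines, against 3.48, 3.37 and 2.96 in wild-type lines, with line 75 and line 102 almost touching. The probe sets just outside, from a deposited p-value of 0.0500191, carry no symbol, so no Zfp value can be given there.

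The lines contributed unequally. Knockout line 75 was the knockout line nearest to the wild-type mean in 40 of the 91 probe sets, line 72 in 31 and line 116 in 20. Line 75 held that place in 27 of the 46 lower probe sets and 13 of the 45 higher ones. It did so in 46.9% of all probe sets with a symbol, so the Zfp share of 44.0% was close to the rest. Those were not split by direction, so whether the contrast of lower and higher is particular to Zfp was not tested. Among wild-type lines, line 101 came nearest to the knockout mean in 40 probe sets, line 102 in 28 and line 31 in 23. Because the genotypes do not overlap in any member, leaving out a line could not turn a direction.

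Genes that work with zinc finger repressors were read from a list of 40 corepressor genes. Symbols covered 18, of which 8 were higher and 10 lower in knockout lines by the brightest probe set of each gene. Their median was -0.37, against -0.27 over all single probe sets with a symbol, which is not a count by gene. By the brightest probe set 0 of the 18 passed limma's adjusted p under 0.05, beside 0.107% of all probe sets of the array, and nothing is read from it. An unadjusted limma p under 0.05 was reached by 17 of them, beside 81.6% of all single probe sets with a symbol. For Cbx1, a heterochromatin protein, a dim probe set fell by 1.58 (adjusted p = 0.0346, limma with Benjamini-Hochberg), while the brightest went the other way, at 5.59 ± 0.15 in knockout lines and 5.09 ± 0.19 in wild-type lines (SD, n = 3 each), a difference of 0.50. Cbx3, another heterochromatin protein, also had probe sets on both sides, with 0.79 in the brighter (adjusted p = 0.082, limma) and -0.77 in a dim one (adjusted p = 0.173, limma), so neither gene is given a direction. The remodeller Chd4 differed by -2.06 (adjusted p = 0.0523, limma) and by -0.99 in its other probe set. Chd4 read 5.45, 6.12 and 5.74 in knockout lines, against 8.12, 7.44 and 7.94 in wild-type lines.

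Zinc finger genes with other family names were read in the same way. Of 29 such genes with a symbol, found by a pattern that also took in Sp110, a gene of another family, 14 were higher and 15 lower, with a median of -0.42. None passed limma's adjusted p under 0.05, beside 0.107% of all probe sets of the array, and nothing is read from it. By the brightest probe set of each gene, 25 had an unadjusted limma p under 0.05, again beside 81.6% of all single probe sets with a symbol. Ctcf, which sets the borders of chromatin loops, read 7.32, 7.47 and 7.24 in knockout lines, against 8.99, 8.67 and 8.42 in wild-type lines, a difference of -1.35 (adjusted p = 0.0578, limma). Zbtb7a differed by -1.49, Zbtb38 by -1.26 and Klf6 by -0.95, and none of them passed.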

How the data were processed

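Log2 expression values per probe set were deposited by the authors for 6 arrays, in a workbook sheet and a value table that agree to within 5.0e-09; their background correction and normalization were not given in the sources used here. Array medians lay between 5.41 and 5.50. Per the labels' protocols, 50 ng of total RNA was amplified and the product labelled with biotin. The authors also deposited a p-value per probe set, and a log2 difference and a B score for those with p under 0.05.

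The deposited values were fitted with limma 3.58.1 in R 4.3.3 (knockout minus wild type, no covariate) over all 45037 probe sets that are not controls, with Benjamini-Hochberg adjustment and a threshold of 0.05. The fit was run on simulated data as a check of the code only. Those data had independent noise, no structure among lines or batches, and planted differences larger than most seen in Zfp probe sets. The number of arrays limits the precision, and the median standard error was 0.18. Symbols were updated through RefSeq (GRCm38.p6): 62 of the 72 were current and 10 matched 1 synonym. A gene is represented by its brightest named probe set.

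The members and lists were chosen with earlier results of these data known. Named were genes at adjusted p under 0.05, the 10 of largest difference each way, those with several probe sets, the CCCH and ubiquitin ligase members, the extremes of the deposited p-value, and from each further list those past the threshold or up to 4 of smallest p. The neighbour grouping and the motifs were added after the data were seen. Alternatives were median centring, quantile normalization, a filter on dim probe sets, an intensity trend, leaving out shared-probe IDs or 1 line, averaging the probe sets of a gene, and the deposited p-values.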

Additional observations from a re-analysis of the deposited data

How the results depend on the processing

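Of the 91 Zfp probe sets, 46 were lower and 91 were without overlap whichever line was left out, which the choice of members fixes; the number at least 2-fold different ranged from 12 to 16, against 11, and the median difference from -0.11 to -0.08. The median was 0.19 with dim probe sets left out and -0.30 without IDs ending in _s_at or _x_at. The number of Zfp probe sets at adjusted p under 0.05 (limma) was 0 with median centring, 0 with the deposited p-values, and 0 to 3 with a line left out, against 1. Over all probe sets it was 80 without shared-probe IDs, 3 with the deposited p-values and 1 to 327 with a line left out, against 48, the highest without knockout line 75. Averaging the probe sets of a gene turned Zfp148 (0.15), Zfp191 (-0.22) and Zfp451 (-0.54); their probe sets had opposite signs. The share of lower genes among those with zinc finger neighbours was 36.4%, and under 3 alternatives chosen after seeing the data it was 31.2% with at least 1 neighbour, 35.0% with at least 3, and 18.8% without dim genes. No paired analysis was possible because the line numbers are not shared between the genotypes. With 3 lines per genotype, members picked at small p-values, and signal over background unknown for the 14 dim probe sets, the sizes are descriptions of these lines; the cause of each shift was not tested.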
